A study of Mus musculus with 11 samples.

Results

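The 46 genes described here encode the enzymes that remove superoxide and peroxides, make and use glutathione, or buffer metals, together with the Nrf transcription factors that control many of them. They form a list of gene symbols drawn up by function when earlier results of these data were already known, and all 46 were found among the 36666 genes of the count table. RNA-Seq was performed on poly(A)+ RNA from the cerebrum of 11 male C57/Bl6 mice aged 1 year. Of these, 7 were Polg mutator mice (D257A/D257A), homozygous for a knock-in change that takes away the proofreading activity of the mitochondrial DNA polymerase. Littermate controls were 3 WT/WT mice (mice 205, 239 and 246) and 1 WT/D257A mouse (mouse 237), which carried the D257A change on 1 allele. All 4 were pooled as controls, after the study's own grouping. As a knock-in, the change is carried by all cell types of the brain and by the rest of the body.

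Superoxide that leaks from the respiratory chain is turned into hydrogen peroxide by superoxide dismutases, and the peroxide is then reduced to water by catalase, glutathione peroxidases or peroxiredoxins. Glutathione and thioredoxin carry the electrons for glutathione peroxidases and peroxiredoxins and are themselves reduced with NADPH. The transcription factor Nrf2, the product of Nfe2l2, is held in the cytoplasm and degraded through Keap1, and when Keap1 is modified by oxidants or electrophiles it enters the nucleus, pairs with small Maf proteins and binds antioxidant response elements near genes for glutathione synthesis, thioredoxin reduction and detoxification. In the brain this response is known to be strong in astrocytes and weak in neurons. The comparison asked whether the mRNAs of this system differed between brains with and without the mutator polymerase.

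Between 28249345 and 121182250 reads per mouse were counted on genes, and the least abundant antioxidant mRNA in any mouse, that of Gpx7, still had 54 counts. All 46 genes passed the filter on low counts and were tested. Mgst1 alone among them passed an adjusted p of 0.05 (quasi-likelihood test of edgeR, Benjamini-Hochberg adjustment over the 17983 genes tested), and it was higher in the mutators. Over all genes tested 1.24% passed this threshold, 0.439% being higher and 0.801% lower in the mutators. Mgst1 was also the only antioxidant gene whose 4 control and 7 mutator values did not overlap, which held for 2.62% of all genes. An unadjusted p-value under 0.05 was found for 8 of the 46 genes, or 17.4%, against 15.8% of all genes. Of these 8, Mgst1, Nfe2l2 and Gpx3 had higher mean levels in the mutators, whereas Sod3, Txn2, Prdx6, Msrb2 and Mt3 had lower ones. The number under this threshold was 5 without control mouse 237 and 4 without control mouse 246.

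The changes were small. Log2 fold changes of the 46 genes lay between -0.32, for Sod3, and 0.65, for Gpx3, with 25 above 0 and 21 below 0. Their median was 0.016, against 0.0014 over all genes tested. The standard error (SE) of these fold changes had a median of 0.057 on the log2 scale, against 0.078 over all genes. In 42 of the 46 genes, the 95% interval of the log2 fold change lay wholly between -0.5 and 0.5, which was so for 73.5% of all genes. The exceptions were Sod3, Gpx3, Mgst1 and Mt2. RNA of whole cerebral tissue was measured, so fewer cells of a type and less RNA per cell cannot be told apart in any of these values.

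**Figure D1:**
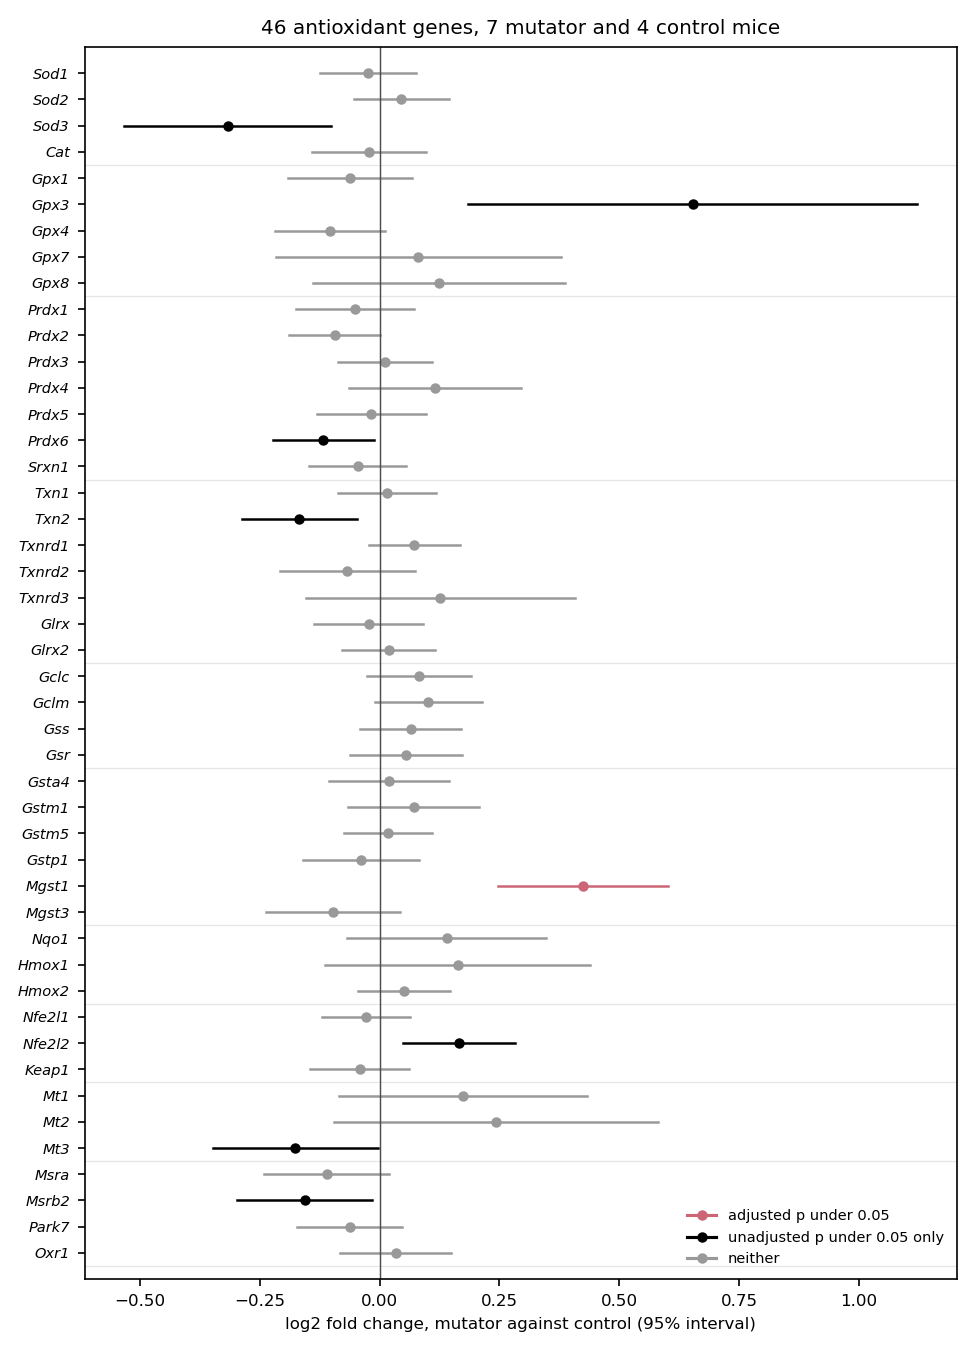
Log2 fold change of each of the 46 genes between 7 mutator and 4 control mice (x axis), with the genes listed by role from top to bottom, points for the estimate and bars for its 95% interval. Mgst1, at 0.42, is the only gene past the adjusted threshold, 7 more have an unadjusted p-value under 0.05, and Gpx3 has the widest interval, from 0.19 to 1.12.

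Mgst1 (ENSMUSG00000008540) encodes microsomal glutathione transferase 1, a membrane enzyme of the endoplasmic reticulum and the outer mitochondrial membrane that joins glutathione to electrophiles and reduces lipid hydroperoxides. Its position in mm9 is chromosome 6, 138088837 to 138105276, plus strand, with 7 exon blocks in the annotation used here. Between 209 and 938 reads per mouse were counted on it. After scaling, its level in CPM, the counts of a gene scaled to a fixed library size, was 7.63 in control mouse 205, 6.54 in the WT/D257A control 237, 7.80 in control 239 and 7.60 in control 246. The 7 mutators had a lowest value of 8.73 CPM, a median of 10.1 and a highest value of 11.4. Each mutator thus lay above each control, and the 3 WT/WT mice lay close together. The mean rose from 7.39 ± 0.58 CPM (SD, 4 mice) to 9.93 ± 0.87 (SD, 7 mice). On the log2 scale this was a fold change of 0.42 with a standard error of 0.085 and an edgeR adjusted p of 0.0165.

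Mgst1 had the same direction in all 20 alternative settings, with log2 fold changes between 0.37 and 0.46, and an adjusted p-value under 0.05 in 18 of them. The call was lost without the WT/D257A control, the mouse with the lowest Mgst1 level. Against the 3 WT/WT mice alone, the log2 fold change was 0.37 (SE 0.090, edgeR adjusted p = 0.112), and the values of the groups still did not overlap. Without mutator mouse 248, whose gene counts stand apart from its listed reads, it was 0.42 (edgeR adjusted p = 0.0348).

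**Figure D2:**
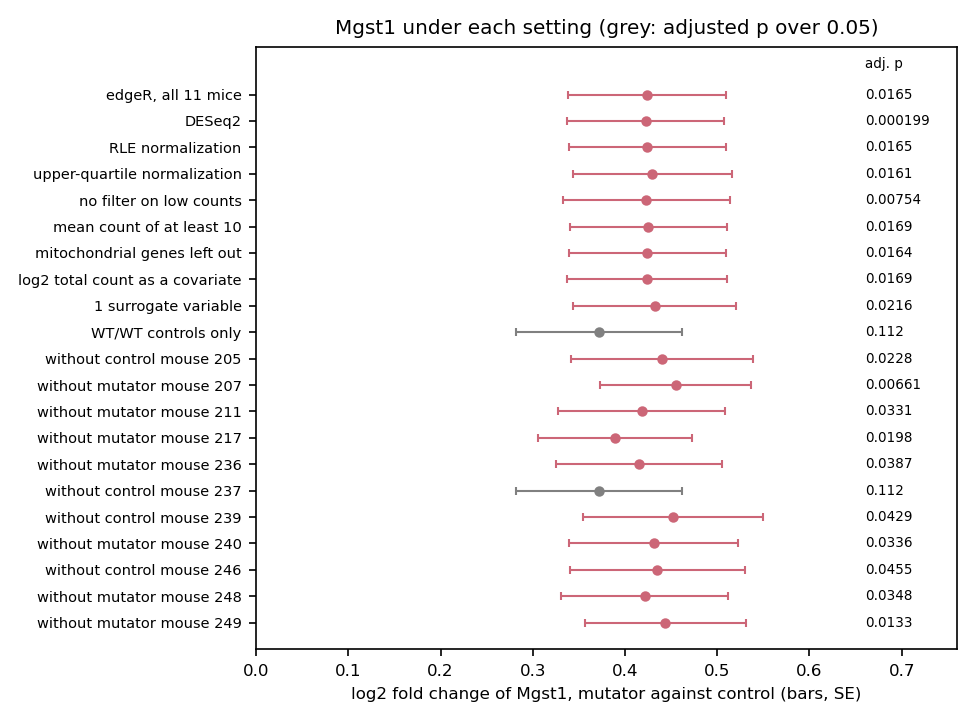
Log2 fold change of Mgst1 between mutator and control mice (x axis, bars for the standard error) under each test, normalization, filter and set of mice, with the adjusted p-value at the right. The estimate stays between 0.37 and 0.46, and the adjusted p-value is over 0.05 only without control mouse 237, a setting that appears under both of its names.

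The higher Mgst1 mRNA was spread along the gene. In the exon files, which hold counts for pieces of each gene between annotated exon boundaries (bins) in the 7 mutator and 3 WT/WT mice, 11 bins of Mgst1 had enough counts to be tested. All 11 had a higher mean CPM in the mutators. Usage of a bin relative to the rest of its gene passed the threshold for none of them in edgeR's diffSpliceDGE, where the lowest unadjusted p-value, for bin 16, was 0.144 with an adjusted p of 1.

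The core of the antioxidant response element, TGACNNNGC, was looked for on both strands of the promoters given by RefSeq for GRCm38.p6, each covering 250 bases before and 50 bases after a start site. Of the 46 genes, 38 had at least 1 promoter in the table, with 55 promoters in all, and 10 of these 55, each of a different gene, held a match, or 18.2%, against 12.4% of the 32851 promoters of all genes. The 10 genes were Mgst1, Nfe2l2, Gclm, Txnrd1, Prdx1, Srxn1, Sod1, Gstm5, Mt2 and Msrb2. Sod3, Prdx6, Gclc, Gsr, Gsta4, Hmox1, Msra and Oxr1 had no entry. Nqo1 had an entry but no match. Elements outside these windows were not looked for, so a gene without a match may still have one elsewhere. The matches of the gene that passed the test, of Nfe2l2 itself and of the genes of glutathione synthesis, thioredoxin reduction and peroxide removal are written out because Nrf2 is known to act through elements of this kind at such genes. Each is written 5′ to 3′ on the strand of its gene, with the match in capitals, and a match on the opposite strand reads GCNNNGTCA.
Mgst1 (chr6:138140463-138140487, plus strand, match starting at position -56 from the start site): ggggcttgGCACGGTCAggaggcgg
Nfe2l2 (chr2:75704887-75704911, minus strand, position -240): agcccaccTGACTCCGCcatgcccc
Gclm (chr3:122245415-122245439, plus strand, position -134): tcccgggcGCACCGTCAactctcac
Txnrd1 (chr10:82859106-82859130, plus strand, position -92): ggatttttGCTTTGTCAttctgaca
Prdx1 (chr4:116685458-116685482, plus strand, position -133): gggaaagcGCTGAGTCAtcccccgt
Only the 9 bases of the motif were required, of which 3 may be any base. A match describes the letters of a window and not binding of a factor. Of the 5 genes shown, Mgst1 had the log2 fold change of 0.42 given above, Nfe2l2 one of 0.17, Gclm one of 0.10, Txnrd1 one of 0.073 and Prdx1 one of -0.051. The genes with a match that is not written out had -0.046 (Srxn1), -0.025 (Sod1), 0.017 (Gstm5), 0.24 (Mt2) and -0.16 (Msrb2).

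Nfe2l2 (ENSMUSG00000015839, chromosome 2 of mm9, 75513570 to 75542698, minus strand) encodes Nrf2. Its level was 20.2 CPM in control mouse 205, 19.2 in control 237, 18.1 in control 239 and 19.9 in control 246. In the mutators it was between 20.1 and 22.7 CPM with a median of 22.1. The groups overlapped only in control 205 and the lowest mutator, mouse 207, whose values were nearly equal. The log2 fold change of 0.17 (SE 0.056, unadjusted p = 0.00773) had an adjusted p of 0.144 in edgeR's quasi-likelihood test, and over the 20 alternatives its adjusted p lay between 0.0784 and 0.378. Nfe2l1, which encodes the related factor Nrf1 and was the most abundant of the 3 regulators per exon length, had 393 ± 17 CPM (SD) in the 4 controls and 385 ± 16 (SD) in the 7 mutators, a log2 fold change of -0.029 with a 95% interval from -0.12 to 0.063. Keap1, the adaptor through which Nrf2 is degraded, had a log2 fold change of -0.042 with an interval from -0.14 to 0.061. Of the exon sequence of Keap1, 11.4% overlaps a transcript of the opposite strand, and whether the counting used strand is not given in the sources used here.

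**Figure D3:**
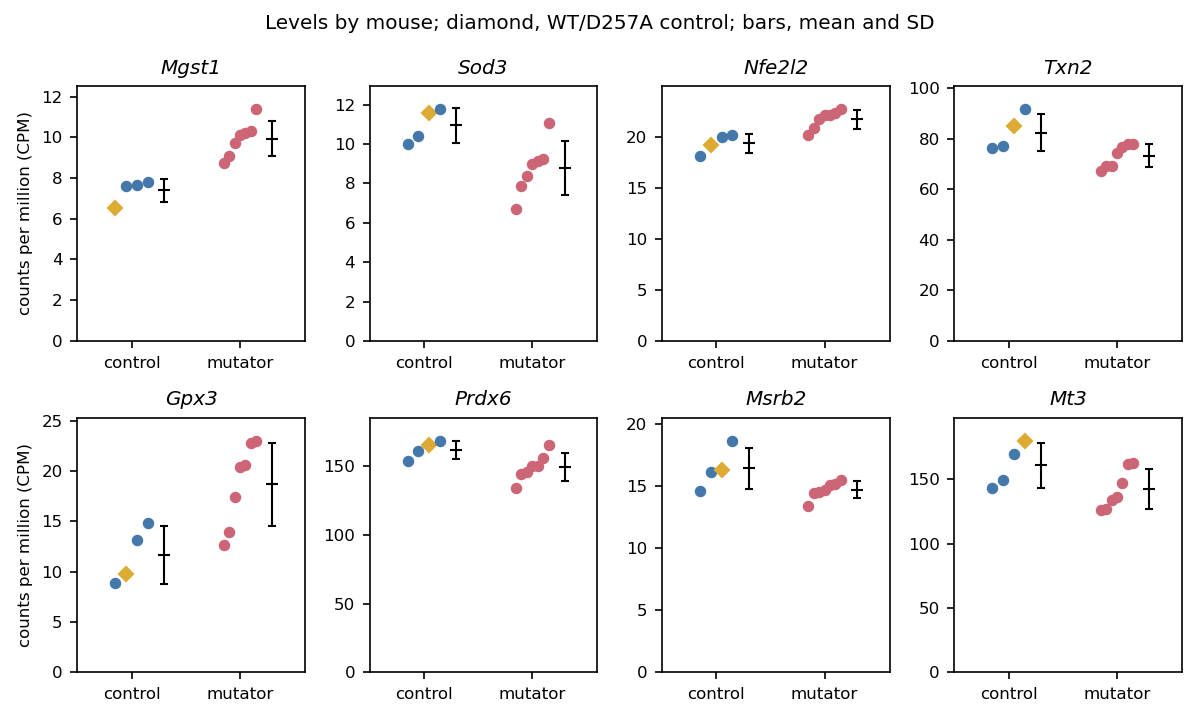
CPM (y axis, from 0) in each control and mutator mouse for the 8 genes with an unadjusted p-value under 0.05, with a diamond for the WT/D257A control and bars for mean and SD. The control and mutator points are apart only for Mgst1, whose highest control has 7.80 CPM and whose lowest mutator has 8.73.

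Of the 4 genes for superoxide dismutases and catalase, none passed the adjusted threshold. Sod3 (ENSMUSG00000072941, chromosome 5 of mm9, 52755185 to 52762644), the secreted extracellular superoxide dismutase, had 9.98 CPM in control mouse 205, 11.6 in control 237, 10.4 in control 239 and 11.8 in control 246. The mutators had between 6.69 and 11.1 CPM with a median of 9.01. All mutators but mouse 236 lay below the lowest control. For Sod3 this gave a log2 fold change of -0.32 (SE 0.10, edgeR adjusted p = 0.131), with adjusted p-values between 0.0612 and 0.426 over the alternatives.

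Sod1, the cytosolic enzyme and the most abundant of these 4 per exon length, had 241 ± 11 CPM per kilobase of exon (SD) in the 4 controls and 236 ± 13 (SD) in the 7 mutators. Its log2 fold change was -0.025, with an interval from -0.12 to 0.075. Sod2, the mitochondrial matrix enzyme that faces superoxide from the respiratory chain, had 151 ± 9.8 CPM in the controls and 156 ± 6.5 in the mutators. The log2 fold change of Sod2 was 0.046 with a 95% interval from -0.054 to 0.15, and that of Cat, the catalase of peroxisomes, was -0.022 with one from -0.14 to 0.098. The counts of Sod1 are uncertain, since its transcript has a near-identical copy elsewhere in the genome (97.2% identity over 98.0% of its length).

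The glutathione peroxidases reduce peroxides with glutathione. Gpx3 (ENSMUSG00000018339, chromosome 11 of mm9, 54715955 to 54723879), which encodes the secreted plasma form, had 14.9 CPM in control mouse 205, 9.74 in control 237, 13.2 in control 239 and 8.83 in control 246. In the mutators it had between 12.6 and 23.0 CPM with a median of 20.3. Mutator mice 211 and 248 lay below the highest control and the other 5 above it. The log2 fold change of 0.65 was the highest of the 46 genes, but so was its standard error of 0.21. Its adjusted p was 0.170 in edgeR's quasi-likelihood test and 0.0379 in DESeq2. Over all genes, DESeq2 also passed more, 615 against 223 in edgeR. When single mice were left out the log2 fold change of Gpx3 lay between 0.56 and 0.80, with edgeR adjusted p-values between 0.103 and 0.469.

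Gpx4, the selenoprotein that reduces lipid hydroperoxides in membranes and was the most abundant peroxidase of this family per exon length, had 124 ± 10.1 CPM per kilobase of exon (SD) in the 4 controls and 115 ± 7.03 (SD) in the 7 mutators, a log2 fold change of -0.10 with an interval from -0.22 to 0.011. Its counts are uncertain because of 2 near-identical copies in the genome. Gpx1, the general cytosolic and mitochondrial enzyme, had a log2 fold change of -0.062 with an interval from -0.19 to 0.067. Gpx7 and Gpx8, a pair of peroxidases of the endoplasmic reticulum, were at 1.94 ± 0.28 and 2.79 ± 0.30 CPM in the controls. Their log2 fold changes were 0.081 and 0.12, with standard errors of 0.14 and 0.13.

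Peroxiredoxins reduce peroxides through a reactive cysteine that thioredoxin restores, and sulfiredoxin repairs the cysteine when it has been overoxidized. None of these 7 genes passed the adjusted threshold, and 5 of the 7 had a negative log2 fold change. Prdx6 (ENSMUSG00000026701, chromosome 1 of mm9, 163170243 to 163181350), the peroxiredoxin that works with glutathione and also has phospholipase activity, had 161 CPM in control mouse 205, 165 in control 237, 153 in control 239 and 168 in control 246. The mutators had between 134 and 165 CPM with a median of 149.6. Mutator mice 217 and 249 lay among the controls, and the other 5 lay below the lowest control. For Prdx6 this gave a log2 fold change of -0.12 (SE 0.051, unadjusted p = 0.0310, edgeR adjusted p = 0.259).

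Prdx3, the peroxiredoxin confined to mitochondria, had 48.4 ± 2.6 CPM (SD) in the 4 controls and 48.8 ± 1.3 (SD) in the 7 mutators, a log2 fold change of 0.012 with an interval from -0.086 to 0.11. Prdx5, found in mitochondria, peroxisomes and cytosol and the most abundant of the family per exon length at 63.2 ± 4.6 CPM per kilobase of exon in the controls, had a log2 fold change of -0.017 with an interval from -0.13 to 0.097. A share of 19.1% of its exon sequence overlaps Trmt112 on the opposite strand. The cytosolic Prdx1 and Prdx2 had log2 fold changes of -0.051 and -0.094, the interval of Prdx2 being -0.19 to 0.0015, and Prdx2 has a near-identical copy in the genome. Prdx4, of the endoplasmic reticulum, had a log2 fold change of 0.12 and Srxn1, the sulfiredoxin and a known Nrf2 target, one of -0.046.

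Thioredoxin 2, encoded by Txn2 (ENSMUSG00000005354, chromosome 15 of mm9, 77745477 to 77759436), is the thioredoxin of mitochondria and restores Prdx3. Its level was 76.2 CPM in control mouse 205, 84.9 in control 237, 76.9 in control 239 and 91.7 in control 246. The mutators had between 67.4 and 78.1 CPM with a median of 74.5. Controls 205 and 239 lay within the range of the mutators, and controls 237 and 246 above it. Txn2 had a log2 fold change of -0.17 (SE 0.057, unadjusted p = 0.00845, edgeR adjusted p = 0.149), with adjusted p-values between 0.0794 and 0.467 over the alternatives.

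The cytosolic Txn1, which had the highest level per exon length among the thioredoxin and glutaredoxin genes, had 36.6 ± 1.5 CPM per kilobase of exon (SD) in the 4 controls and 36.9 ± 1.5 (SD) in the 7 mutators, a log2 fold change of 0.015. The NADPH-dependent reductases of these thioredoxins had log2 fold changes of 0.073 for the cytosolic Txnrd1, a known Nrf2 target, -0.067 for the mitochondrial Txnrd2 and 0.13 for Txnrd3. The interval for Txnrd1 ran from -0.023 to 0.17, and that for Txnrd2 from -0.21 to 0.073. Glutaredoxins, which remove glutathione from proteins, had log2 fold changes of -0.022 (Glrx) and 0.019 (Glrx2).

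Glutathione is made by glutamate-cysteine ligase, whose catalytic and modifier subunits are encoded by Gclc and Gclm, and then by glutathione synthetase (Gss). It is reduced again by glutathione reductase (Gsr). All 4 genes had positive log2 fold changes, of 0.082, 0.10, 0.065 and 0.055 in that order, with standard errors between 0.051 and 0.056. None had an unadjusted p-value under 0.05, and the lowest adjusted p, for Gclm, was 0.369 in edgeR's quasi-likelihood test. Gclm was at 56.1 ± 3.2 CPM (SD) in the 4 controls and 60.2 ± 3.6 (SD) in the 7 mutators, with values from 52.2 to 59.6 in the former and from 56.5 to 66.2 in the latter. The upper ends of the 95% intervals were 0.19 for Gclc, 0.21 for Gclm, 0.17 for Gss and 0.17 for Gsr on the log2 scale. Gclc was the most abundant of the 4 per exon length, with 18.4 ± 1.2 CPM per kilobase of exon in the controls and 19.5 ± 1.0 in the mutators.

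Mgst1 was the least abundant of the 6 glutathione transferase genes per exon length, at 3.67 ± 0.29 CPM per kilobase of exon (SD) in the 4 controls and 4.93 ± 0.43 (SD) in the 7 mutators. Gstm1, a cytosolic enzyme, was the most abundant, at 117 ± 7.9 and 123 ± 12. Its log2 fold change was 0.071 with an interval from -0.065 to 0.21, that of Gstm5 was 0.017 with one from -0.075 to 0.11 and that of Gstp1 was -0.039 with one from -0.16 to 0.082. The related membrane protein Mgst3 had a log2 fold change of -0.097 with an interval from -0.24 to 0.043, and the interval of Mgst1 ran from 0.25 to 0.60. Gsta4, which removes the lipid aldehyde 4-hydroxynonenal, had a log2 fold change of 0.020. The counts of Gstm1 and Gstp1 are uncertain, since their transcripts have copies with 97.2% and 98.3% identity in the genome, whereas no such copy was found for Mgst1.

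Nqo1, the quinone reductase, and Hmox1, the inducible heme oxygenase, are among the best known targets of Nrf2. Nqo1 had 4.52 ± 0.35 CPM (SD) in the 4 controls and 4.96 ± 0.42 (SD) in the 7 mutators, and its log2 fold change of 0.14 had an interval from -0.068 to 0.35 (edgeR adjusted p = 0.524). Hmox1 was at 4.09 ± 0.46 and 4.56 ± 0.87 CPM, with a log2 fold change of 0.16 and an interval from -0.11 to 0.44 (edgeR adjusted p = 0.590). The highest Hmox1 values, 6.07 and 5.49 CPM, were those of mutator mice 217 and 249, and the other 5 mutators, at 3.84 to 4.38 CPM, lay within the range of the controls. Hmox2, the constitutive heme oxygenase and the most abundant of these 3 per exon length at 20.9 ± 0.5 CPM per kilobase of exon in the controls, had a log2 fold change of 0.051 with an interval from -0.046 to 0.15. It shares 40.2% of its exon sequence with a gene on the opposite strand, so its counts are uncertain.

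Metallothioneins bind zinc and copper through their cysteines and scavenge radicals. The astrocytic Mt1 and Mt2, which are induced by metals and glucocorticoids, had log2 fold changes of 0.17 and 0.24, whereas Mt3, the brain metallothionein, had one of -0.18. Mt3 (ENSMUSG00000031760, chromosome 8 of mm9, 96676507 to 96678048) had the highest level per exon length of all 46 genes, at 298 ± 32 CPM per kilobase of exon (SD) in the 4 controls and 264 ± 29 (SD) in the 7 mutators. Scaled to library size only, it had 143 CPM in control mouse 205, 179.8 in control 237, 149 in control 239 and 169.8 in control 246, and between 126 and 163 with a median of 136 in the mutators. The groups overlapped, with 3 mutators among the controls and 4 below them. The unadjusted p of Mt3 was 0.0459 and its edgeR adjusted p 0.308. Without control 237 the log2 fold change of Mt3 was -0.12 (edgeR unadjusted p = 0.188).

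Mt1 had 100.5 ± 8.8 CPM (SD) in the 4 controls and 113 ± 18 (SD) in the 7 mutators, and its adjusted p was 0.517 in edgeR's quasi-likelihood test. Mt2 was at 51.5 ± 6.0 and 60.9 ± 11.1 CPM (edgeR adjusted p = 0.480). Mutator mouse 240 had the lowest level of both among all 11 mice, at 87.9 CPM for Mt1 and 40.2 for Mt2.

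Methionine sulfoxide reductases repair oxidized methionines in proteins. Msrb2 (ENSMUSG00000023094, chromosome 2 of mm9, 19293067 to 19316603), the mitochondrial enzyme for the R form, had 16.2 CPM in control mouse 205, 16.3 in control 237, 14.7 in control 239 and 18.7 in control 246. In the mutators it lay between 13.5 and 15.5 CPM with a median of 14.7. Control 239 lay within the range of the mutators and the other 3 controls above it. Msrb2 had a log2 fold change of -0.16 (SE 0.068, unadjusted p = 0.0317, edgeR adjusted p = 0.262), and it was -0.096 without control 246 (edgeR unadjusted p = 0.177). Msra, the enzyme for the S form, had a log2 fold change of -0.11 with an interval from -0.24 to 0.020. Park7, which encodes the redox sensor DJ-1, had one of -0.063 with an interval from -0.17 to 0.047. Oxr1, a gene that protects neurons from oxidative stress and the most abundant of these 4 per exon length, had 66.2 ± 6.1 CPM per kilobase of exon (SD) in the 4 controls and 67.7 ± 3.7 (SD) in the 7 mutators, a log2 fold change of 0.033.

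For Sod2, Prdx3, Prdx5, Txn2, Txnrd2 and Msrb2, whose products work in mitochondria, the log2 fold changes lay between -0.17 and 0.046. The adjusted p-value was over 0.05 for each of them in edgeR's quasi-likelihood test. Mgst1, whose enzyme is also in the outer mitochondrial membrane, is not among them, at 0.42 (edgeR adjusted p = 0.0165). Neither is Gpx1, mitochondrial in part, at -0.062. The genes named here are not a full list of the members with a mitochondrial form.

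**Figure D4:**
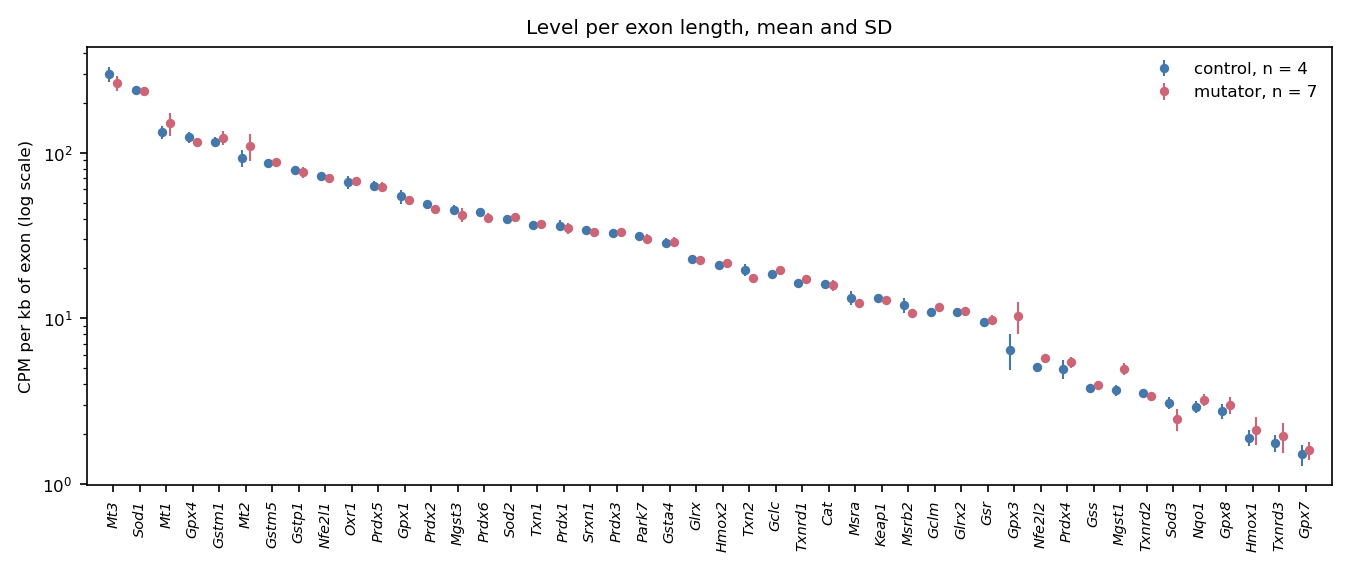
Level per exon length of the 46 genes in CPM per kilobase of exon (y axis, log scale), ordered from the highest to the lowest control mean, with mean and SD for 4 control and 7 mutator mice. Mt3 is highest at 298 and Gpx7 lowest at 1.5 in the controls, and Mgst1, among the low ones, is at 3.67 in the controls and 4.93 in the mutators.

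Levels per exon length covered a wide range. In the controls, Mt3, Sod1, Mt1, Gpx4 and Gstm1 had the highest values, of 298, 241, 133, 124 and 117 CPM per kilobase of exon. The lowest were those of Gpx7, Txnrd3 and Hmox1, at 1.5, 1.76 and 1.89. Within the groups, the SD of log2 CPM over mice had a median of 0.097 over the 46 genes and of 0.13 over all genes tested. It was highest for Gpx3, at 0.35, and Mt2, at 0.26, and lowest for Gss, at 0.041.

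The wider pathway was followed in 118 further genes with enough counts, of 127 in lists of glutathione handling, Nrf2 control and other Nrf2 targets, thioredoxin, methionine sulfoxide and selenoprotein genes, and zinc and copper handling. Only Maff, from the list of Nrf2 control, passed the adjusted threshold. Maff encodes a small Maf protein, the kind of partner with which Nrf2 binds DNA. Its level was 1.77 CPM in control mouse 205, 0.99 in control 237, 1.2 in control 239 and 0.909 in control 246, and in the mutators it lay between 1.85 and 6.00 CPM with a median of 2.97. The groups did not overlap, but mutator mouse 211, at 1.85 CPM, was close to control 205. Maff had a log2 fold change of 1.43 with a standard error of 0.31 and an edgeR adjusted p of 0.0437, and the call was kept in 9 of the 20 alternatives. It was lost, among others, when control mouse 237, 239 or 246 or mutator mouse 207, 236, 240 or 248 was left out, with edgeR adjusted p-values up to 0.201. Over all alternatives the log2 fold change of Maff was at least 1.25. The small Maf genes Mafg and Mafk had higher levels than Maff. The median of Mafg was 105.0 CPM in the controls and 104.6 in the mutators, and that of Mafk 11.1 and 12.6.

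Of the 118 genes, 23 had an unadjusted p under 0.05, or 19.5%, with 13 higher and 10 lower in the mutators, beside the share of all genes given above. By list, these were 4 higher and 1 lower of 31 glutathione handling genes, 3 higher and 4 lower of 36 genes of Nrf2 control and other Nrf2 targets, 5 higher and 2 lower of 28 thioredoxin, methionine sulfoxide and selenoprotein genes, and 1 higher and 3 lower of 23 zinc and copper genes. The median log2 fold change of the 118 genes was 0.022. In the other 3 lists the gene with the lowest p-value was Gstm2, a glutathione transferase, at 0.59 (edgeR adjusted p = 0.0823), Sepp1, the selenium carrier selenoprotein P, at 0.21 (edgeR adjusted p = 0.0902), and Slc30a10, a manganese exporter, at -0.23 (edgeR adjusted p = 0.101).

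**Figure D5:**
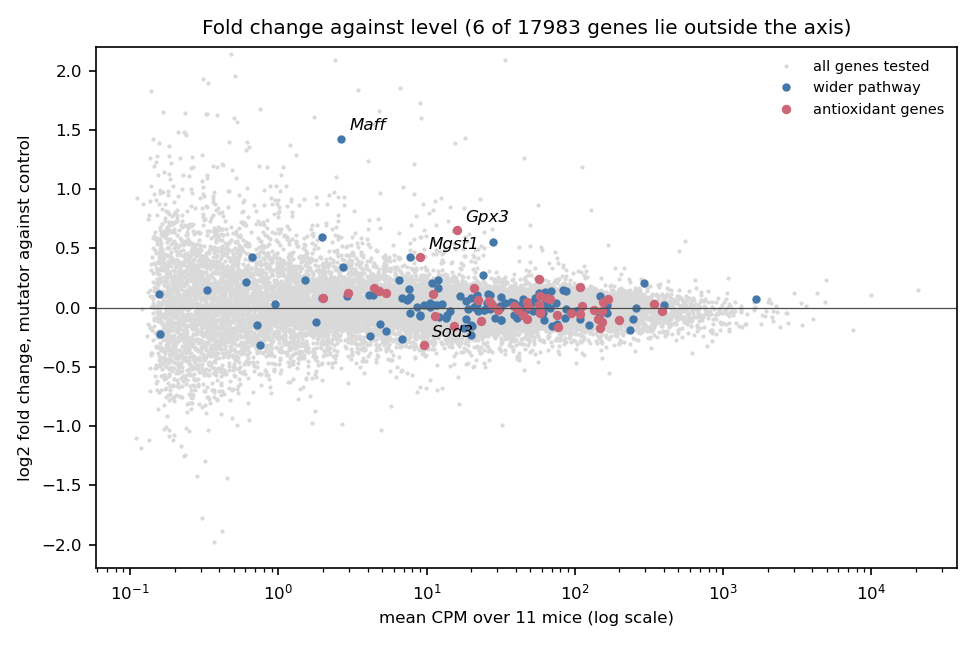
Log2 fold change between mutator and control mice (y axis) against the mean level over 11 mice in CPM (x axis, log scale) for all 17983 genes tested in grey, with the wider pathway in blue and the 46 antioxidant genes in red. Most antioxidant genes lie near 0 at levels where the grey cloud is narrow, and 6 genes outside the y axis are not drawn.

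Usage of exon bins was compared between the 7 mutator and 3 WT/WT mice. Of 462 bins of the 46 genes that were tested, none had an adjusted p-value under 0.05 in diffSpliceDGE, against 0.0232% of all 206930 bins, and 13 had an unadjusted p under 0.05, or 2.81%, against 1.91% of all bins. The 3 bins with the lowest p-values were bins 2 and 1 of Gclm and bin 22 of Park7, each used less in the mutators. Bin 2 of Gclm held 5.34% ± 1.1 of the counts of the gene (SD) in the 3 WT/WT mice and 3.81% ± 0.60 (SD) in the 7 mutators, a log2 change in usage of -0.44 (unadjusted p = 0.00127, adjusted p = 0.945). The change was negative in every alternative, but its size varied with the WT/WT mouse left out, and without control 246 it was -0.37. Control mouse 205, at 4.02%, lay within the mutator range of 3.07% to 4.72%, whereas controls 239 and 246 had 6.03% and 5.96%. Without control 205 the change was -0.68 with a diffSpliceDGE adjusted p of 0.0386, and without control 239 it was -0.30 with an adjusted p of 1.00. Bin 1 of Gclm and bin 22 of Park7 held 1.00% ± 0.52 and 0.165% ± 0.046 of the counts of their genes in the WT/WT mice. The log2 changes in their usage were -0.90 and -1.15, with unadjusted p-values of 0.00146 and 0.00161 and adjusted p-values of 0.992 and 1. Without control 239 the change in bin 1 of Gclm was -0.41 (diffSpliceDGE unadjusted p = 0.224), and without control 205 it was -1.25.

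Markers of the cell types of the tissue were measured beside these genes, and none of the markers tested, in 11 lists, had an adjusted p-value under 0.05. At an unadjusted p under 0.05 the share of all genes, 15.8%, is the background of the counts by list. Each list had counts in each mouse, the lowest mean of any marker being 2.77 CPM, for Ccdc153 of the ependyma. Of 8 astrocyte markers, 1 was higher and 1 lower at an unadjusted p under 0.05, and their summed level was 4938 to 5241 CPM in the controls and 4652 to 5083 in the mutators. Of 6 endothelial markers 3 were higher and 1 lower, with sums of 186 to 224 and 196 to 261 CPM. All 4 microglial markers under that threshold, of 6, were lower, with sums of 202 to 255 and 190.0 to 225 CPM, and the 3 of 7 oligodendrocyte markers under it were lower too, with sums of 5057 to 5766 and 4948 to 6909. Of 5 choroid plexus markers 1 was higher and 1 lower, with sums of 514 to 694 and 529 to 756 CPM, 1 of 4 pericyte markers was higher and 1 of 3 oligodendrocyte precursor markers lower. None of the 5 neuronal, 3 ependymal, 4 meningeal and fibroblast and 3 red blood cell markers was under it, the last having sums of 46.4 to 159 and 69.3 to 195 CPM. The summed levels overlapped between the groups in every list, and the part of any cell type in the values of Mgst1, Gpx3, Sod3 or the other genes was not tested. Polg itself, whose mutation is a base change that leaves its mRNA in place, had 66.1 ± 3.0 CPM (SD) in the 4 controls and 63.9 ± 4.2 (SD) in the 7 mutators, so its level does not check the genotype labels.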

How the data were processed

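Poly(A)+ RNA of frozen cerebrum was sequenced as 100-bp paired end reads from 11 mice. Per the study's methods and the submitters' processing notes, alignment to mm9 was made by the authors with TopHat2 2.0.6 and Bowtie2 2.0.2.0. Raw counts per gene of Ensembl release 61, made with HTSeq 0.5.3p9, were deposited by the authors. Counts per bin of a flattened annotation were also deposited for 10 of the mice, all but the WT/D257A control. Deposited comparison tables hold fold changes, p-values and mean normalized signal, and none of them was used. A deposited list of aligned reads was used only to compare depths. Gene counts came to 0.744 to 0.775 per aligned read listed in 10 mice and to 3.00 in mutator mouse 248, so depth was taken from the sum of gene counts.

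The test of gene counts was the quasi-likelihood test of edgeR 4.0.16 (R 4.3.3), with filterByExpr, TMM factors and a robust fit, on all 11 mice, 7 against 4, with no covariate. TMM factors lay between 0.974 and 1.02. The Benjamini-Hochberg adjustment was over all genes, with a threshold of 0.05. CPM were computed with the TMM factors. Levels per kilobase used the summed exon length of each gene in Ensembl release 65 for mm9, a later release than that of the authors, which also gave the coordinates. Exon bins were tested with diffSpliceDGE, whose coefficients were divided by the natural log of 2, and bin counts summed to between 24640608 and 105836056 per mouse after leaving out the 20.6% to 23.4% of reads in no bin. Near-identical copies of transcripts (at least 95% identity over at least 50% of the length) were looked for with minimap2 2.31. The alternatives were DESeq2 1.42.0, RLE and upper-quartile normalization, other count filters, mitochondrial genes left out, log2 total count or 1 surrogate variable (sva 3.50.0) as covariate, WT/WT controls only, leaving out each mouse, and for bins limma 3.58.1. The tests were tried on simulated counts. Of 100 genes changed 1.5-fold, edgeR and DESeq2 each called 73, and of 100 changed 2-fold each called 87. False calls numbered 12 in edgeR and 29 in DESeq2. Of 200 bins changed 2-fold, diffSpliceDGE called 196, with 62 false calls, and limma called 200, with 42. Changes under 1.5-fold were not simulated. The pooling of libraries for sequencing is not given per mouse in the sources used here and did not enter the fits.

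The members and gene lists were chosen with earlier results of these data known. All 46 genes could be named. Each mouse, or the range of the mutators, is given for those with an unadjusted p-value under 0.05 or no overlap, and mean and SD for the gene with the highest level per length in each role. Of other lists the called genes or the one with the lowest p-value are named, and of exon bins the 3 with the lowest p-values. Rbfox3 and Map2 of the neuronal markers and 4 wider pathway symbols were not matched in the table. Nqo1, Hmox1 and other single values outside the rule were given after their values were seen.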

Additional observations from a re-analysis of the deposited data

Results flagged for a closer look

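For each of the 46 genes, a mouse was singled out when it lay far from the others of its group, that is, when its distance to the next mouse, as a share of the whole range of the 4 or 7 mice, exceeded the 95% limit of Dixon. This was so in 5 of 92 groups, and chance alone would give about 4.6 (1 in 20).

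The WT/D257A control, mouse 237, had the lowest Mgst1 level of the controls (a gap of 0.835 of the range), at 6.54 CPM against 7.60 to 7.80 in the WT/WT mice. Control mouse 246 had the highest Mt1 level (0.960), at 113.6 CPM against 95.8 to 96.5 in the other controls. Mutator mouse 207 had the lowest Gpx8 level (0.591), at 2.31 CPM against 2.94 to 3.37. Mutator mouse 217 had the highest Prdx3 level (0.607), at 51.4 CPM against 47.6 to 49.1, and mutator mouse 249 the highest Hmox2 level (0.605), at 51.7 CPM against 46 to 48.3. The cause of these gaps was not tested.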

How the results depend on the processing

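Of the 46 antioxidant genes, 1 had an adjusted p-value under 0.05 in each setting except DESeq2, with 2 (Mgst1 and Gpx3, at 0.0379), and the WT/WT controls only, with 0. When single mice were left out the count lay between 0 and 1, the 0 being without control mouse 237. The numbers at an unadjusted p-value under 0.05, 8 in the fit reported, were 5 with 1 surrogate variable and with WT/WT controls only, and 4 without control mouse 246. The 8 genes kept their direction in all 20 alternatives. Of the wider pathway genes, 1 passed the adjusted threshold in the fit reported, 2 with DESeq2, and 0 without a filter on low counts, with log2 total count as a covariate and with WT/WT controls only, and between 0 and 2 did with each mouse left out. The adjusted p-value of Maff was 0.0877 without the filter, 0.0536 with the covariate and 0.0755 with the surrogate variable. Of the exon bins, 0 passed in the fit reported and between 0 and 1 with each mouse left out. Over all genes, 223 passed in the fit reported, 615 with DESeq2, 346 without a filter, 134 with the surrogate variable, 50 with WT/WT controls only, and between 50 and 412 with each mouse left out. The median log2 fold change of the antioxidant genes was 0.016 and became -0.0086 with WT/WT controls only. The cause of these shifts was not tested. Settings that leave out a mouse have fewer samples, and the number over all genes went either way in them. It was 412 without control mouse 205 and 50 without control mouse 237.

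With 4 controls, of which 1 was WT/D257A, the genotype of that mouse and its other properties cannot be told apart. The number of mice limits the precision, which the intervals and standard errors give for each gene. Near-identical copies and transcripts of the opposite strand limit the counts of the genes named with them.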
